A study of Mus musculus with 2 samples.

Results

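Cholesterol metabolism was examined through 29 genes for synthesis, uptake, intracellular handling and export, out of 22423 genes in the deposited count table. The genes were taken by symbol from a list of pathway members, and all 29 were present under 1 Ensembl identifier each. The tissue was cerebellum taken on postnatal day 3 from mice of the C57BL/6 strain, with 1 library from a control carrying floxed Prdm16 alleles (Prdm16fl/fl) and 1 library from a conditional Prdm16 knockout (Prdm16cKO, here cKO). The series title places the knockout in the study of Shh, Gli1 and Hoxc4 signalling in granule neuron progenitors. The labels name neither the Cre driver, the deleted exons, the sex nor the number of animals behind a library, and the design text speaks of triplicates although the table holds 1 count column per genotype. No difference below therefore has a replicate check, and every interval covers counting error only.

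Cells build cholesterol from acetyl-CoA through the mevalonate route, which ends in isoprenoids, and then through a sterol branch that begins with squalene. SREBP transcription factors switch on most of these enzymes when membrane sterol is low, and INSIG proteins hold the SREBP escort SCAP in the endoplasmic reticulum when sterol is plentiful. The brain makes its own cholesterol because plasma lipoproteins do not cross the blood-brain barrier. Cholesterol is also attached to Sonic hedgehog, and sterols bind its signal transducer Smoothened, the pathway that drives division of granule neuron progenitors.

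Reads over genes numbered 18600299 for the control library and 17501279 for the cKO library. Prdm16 itself had 315 control and 118 cKO reads, a log2 ratio of cKO over control of -1.30 (-1.62 to -0.99). Cerebellar identity was present in both libraries, with Atoh1 at 560 and 789 reads and Zic1 at 16884 and 15939. Of 8 choroid plexus markers, 8 were lower in the cKO, with a log2 ratio of their summed reads of -7.80 (-7.94 to -7.66) and 0 of the 8 at 0 reads. Xist had 14779 control and 21 cKO reads, and the Y-linked genes Eif2s3y, Kdm5d, Ddx3y and Uty were higher in the cKO, so sex and genotype cannot be told apart. Of 6 meningeal fibroblast markers, 3 were higher by at least 1.2-fold with 0 lower. Counts past 1.2-fold were 0 higher and 3 lower of 8 astrocyte and Bergmann glia markers, 0 and 1 of 8 oligodendrocyte lineage markers, 2 and 2 of 8 microglia markers, and 0 and 1 of 6 endothelial markers. Among neurons they were 1 and 0 of 6 granule neuron progenitor markers, 2 and 0 of 5 granule neuron markers, and 5 and 0 of 6 measured Purkinje cell markers. Over all genes with at least 10 reads, 7.19% were higher and 8.52% lower by at least 1.2-fold with an interval excluding 1.

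The transcript levels of the cholesterol genes were close in the control and the cKO libraries. Together the 29 genes took 60625 control and 57297 cKO reads. Their summed level was 3225 CPM (counts per 1e+06 reads of the scaled library) for the control and 3308 CPM for the cKO, which differ by 0.04 (0.02 to 0.05) on the log2 scale. The median log2 ratio of the members was 0.03, beside 0.01 for all 18787 genes with at least 10 reads and 0.02 for the 10160 genes with at least 500 reads, which 28 of the 29 members reached. Members ranged from -0.38 for Soat1 to 0.22 for Ebp, with 16 above 0 and 13 below. Their robust SD was 0.11, beside 0.17 among the genes with at least 500 reads.

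To call a gene higher or lower, its scaled ratio had to reach 1.2-fold with a 95% interval that excluded 1. By that rule 0 members were higher, where the background was 7.19% of all genes tested and 7.17% of those with at least 500 reads. Another 3 members were lower (Soat1, Idi1 and Abca1), or 10.3% of the list, where the background was 8.52% and 7.05%. At 2-fold, 0 members passed in either direction, against 3.42% of all genes tested and 0.413% of those with at least 500 reads. For 20 of the 29 the whole interval lay within 1.2-fold of equality, a share of 69.0% beside 51.3% of the genes with at least 500 reads. This share and the robust SD both depend on read depth, for which members and background were not matched. The other 6 met neither criterion at this depth: Fdps, whose 1.25-fold lower level had an interval that held equality, and Pmvk, Ebp, Sc5d, Hsd17b7 and Npc1, whose ratios were below 1.2-fold with intervals that reached past it.

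**Figure D1:**
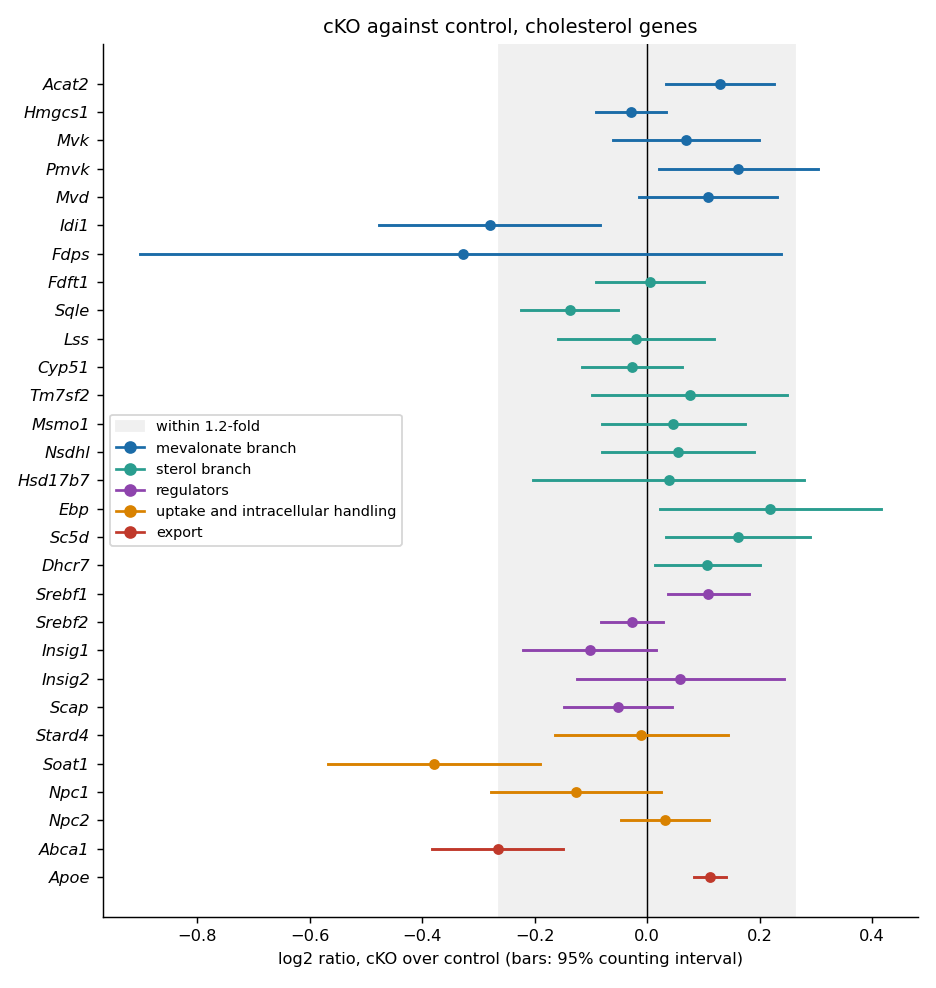
Log2 ratio of cKO over control for the 29 genes, 1 library per genotype, in pathway order and coloured by role. Points are ratios and bars 95% counting intervals, and the grey band marks 1.2-fold. Most intervals lie inside the band, Soat1, Idi1 and Abca1 lie to its left with intervals below 0, and the Fdps interval is the widest.

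The mevalonate branch had 7 genes, of which 0 were higher and 1 lower by the 1.2-fold rule, with a median log2 ratio of 0.07. Acat2, the thiolase that joins acetyl-CoA units, had 1752 control and 1766 cKO reads, and Hmgcs1, the synthase for the next intermediate, had 4378 and 3956. The log2 ratio was 0.13 (0.03 to 0.23) for Acat2 and -0.03 (-0.09 to 0.03) for Hmgcs1. These genes feed mevalonate into 3 ATP-dependent steps. The kinase Mvk had 991 and 958 reads, at 0.07 (-0.06 to 0.20). The second kinase, Pmvk, had 809 and 834, at 0.16 (0.02 to 0.30), and the decarboxylase Mvd had 1082 and 1075, at 0.11 (-0.01 to 0.23). All 3 had scaled levels slightly above the control, by less than 1.2-fold.

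Idi1, the isomerase that makes the reactive isoprene unit, was the lowest enzyme with at least 500 reads. Its 498 control reads stood at 26.5 CPM (24.2 to 28.9), and its 378 cKO reads at 21.8 CPM (19.7 to 24.1). That gave a log2 ratio of -0.28 (-0.48 to -0.08), a 1.21-fold lower level, at percentile 6.22 of the genes with at least 500 reads. Of the Idi1 transcript, 22.6% had a copy of at least 95% identity in 2 processed pseudogenes, and their part in this count was not tested. Fdps, which joins isoprene units into farnesyl diphosphate, had only 64 and 47 reads, and its ratio of -0.33 (-0.90 to 0.24) was not distinguishable from equality. Copies in 5 processed pseudogenes covered 76.8% of its transcript, and another gene on the same strand covered 26.7% of its exons. The sources used here do not state how reads with several matches were counted, so the Fdps level is uncertain, and so is that of Acat2, of whose transcript 65.6% had copies in 2 other genes, among them the paralog Acat3.

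The sterol branch had 11 genes, and 0 of them passed 1.2-fold in either direction. Their summed reads were 13384 and 12493, a log2 ratio of 0.02 (-0.02 to 0.05). Fdft1, the squalene synthase that commits carbon to sterols, had 1856 and 1716 reads, at 0.00 (-0.09 to 0.10). A pseudogene copy covered 33.7% of its transcript. Sqle, the squalene epoxidase and a rate-limiting step, had 2385 and 1998 reads, at -0.14 (-0.22 to -0.05), and was the only gene of this branch with an interval below 0. The cyclase Lss had 901 and 819 reads (-0.02, -0.16 to 0.12), and the lanosterol demethylase Cyp51 had 2176 and 1969 (-0.03, -0.11 to 0.06).

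Steps that trim lanosterol to zymosterol stood close to equality. The sterol reductase Tm7sf2 had 558 and 542 reads (0.08, -0.10 to 0.25), and the methyl oxidase Msmo1 had 1033 and 983 (0.05, -0.08 to 0.17). The decarboxylating dehydrogenase Nsdhl had 909 and 870 (0.05, -0.08 to 0.19), and the ketoreductase Hsd17b7 had 297 and 281 (0.04, -0.20 to 0.28). Each of these 4 intervals held 0.

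The last steps had ratios slightly above 0. The isomerase Ebp had 412 and 442 reads, a ratio of 0.22 (0.02 to 0.42) that was the highest of all members. The desaturase Sc5d had 983 and 1013 reads (0.16, 0.03 to 0.29). Dhcr7, whose reaction yields cholesterol and whose substrate is also the precursor of vitamin D, had 1874 and 1860 (0.11, 0.01 to 0.20). All 3 intervals lay just above 0, but with scaling by total reads those of Ebp (-0.01 to 0.39) and Dhcr7 (-0.02 to 0.17) held 0, and 99% intervals held 0 for all 3. Among genes with at least 500 reads 21.3% had a ratio at least as far from 0 as that of Ebp. Ebp and Nsdhl are X-linked, and the 341 X-linked genes with at least 500 reads had a median of -0.01.

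Taking the 18 enzymes of both branches together, the control gave 22958 reads and the cKO 21507, which scaled to 1221 CPM and 1242 CPM. The log2 ratio of these sums was 0.02 (-0.00 to 0.05), so a shift of the enzymes' total beyond 0.05 in either direction lies outside its counting interval. The median over the 18 was 0.05, with 12 above 0 and 6 below.

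The regulators were all bounded within 1.2-fold, 5 of 5. Srebf2, whose product chiefly drives the cholesterol genes, had 5663 and 5124 reads. These scaled to 301 CPM (293 to 309) for the control and 296 CPM (288 to 304) for the cKO, and the log2 ratio was -0.03 (-0.08 to 0.03). Srebf1, whose products act more on fatty acid genes, had 3184 and 3164 reads, which scaled to 169 CPM (164 to 175) and 183 CPM (176 to 189). Its ratio was 0.11 (0.04 to 0.18). Of the reads on these paralogs, Srebf1 took 36.0% (35.0 to 37.0) in the control and 38.2% (37.1 to 39.2) in the cKO by exact Clopper-Pearson intervals, a shift that no scaling of the libraries affects.

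The Insig genes, whose products restrain SREBP processing, and the escort gene Scap did not pass 1.2-fold. Insig1, itself an SREBP target and a common readout of the pathway's activity, had 1257 and 1079 reads, at -0.10 (-0.22 to 0.02). Insig2, which is less dependent on SREBP, had 501 and 481, at 0.06 (-0.12 to 0.24). The escort gene Scap had 1876 and 1668 (-0.05, -0.15 to 0.04). All 3 intervals held 0 with this scaling, but that of Insig1 lay below 0 with DESeq2 size factors (-0.24 to -0.0036) and with scaling by total reads (-0.25 to -0.01).

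Soat1 had the largest shift of the list. It encodes the enzyme that esterifies cholesterol for storage in lipid droplets. Its 560 control reads scaled to 29.8 CPM (27.4 to 32.4), and its 397 cKO reads to 22.9 CPM (20.7 to 25.3). The log2 ratio of -0.38 (-0.57 to -0.19) is a 1.30-fold lower level, and 4.81% of the genes with at least 500 reads had a ratio at least as far from 0. Other handling genes stayed nearer to the control. Stard4, a cytosolic sterol carrier, had 728 and 666 reads (-0.01, -0.16 to 0.14). Lysosomal export of cholesterol from endocytosed lipoprotein needs Npc2, which binds it in the lumen, and Npc1, which carries it to the membrane. Npc1 had 783 and 661 reads (-0.13, -0.28 to 0.02), and Npc2 had 2753 and 2594 (0.03, -0.05 to 0.11).

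The export genes stood on opposite sides of equality. Abca1, the transporter that loads cholesterol onto apolipoproteins and a target of the oxysterol receptors LXR, had 1385 and 1062 reads, which scaled to 73.7 CPM (69.9 to 77.7) and 61.3 CPM (57.7 to 65.1). Its log2 ratio of -0.27 (-0.38 to -0.15) lay at the 1.2-fold limit, 0.263 on the log2 scale, at percentile 6.97 of the genes with at least 500 reads. Apoe, the main lipoprotein of the brain and largely a product of glia, had 18977 and 18894 reads, a ratio of 0.11 (0.08 to 0.14) and an 8.05% higher level. Of the reads on both genes, Abca1 took 6.80% (6.46 to 7.16) in the control and 5.32% (5.01 to 5.64) in the cKO, so the difference between these genes does not rest on the scaling.

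Soat1, Idi1 and Abca1 were lower in a library where 8 of 8 choroid plexus markers were lower too, with a median log2 ratio of -4.90. Microglia markers, from cells that store and export sterol, summed to 186 CPM for the control and 179 CPM for the cKO, and astrocyte and Bergmann glia markers to 3074 and 3018 CPM. The part of these tissues in the 3 shifts was not tested. In RNA from whole tissue, fewer cells of a type and less RNA per cell cannot be told apart.

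**Figure D2:**
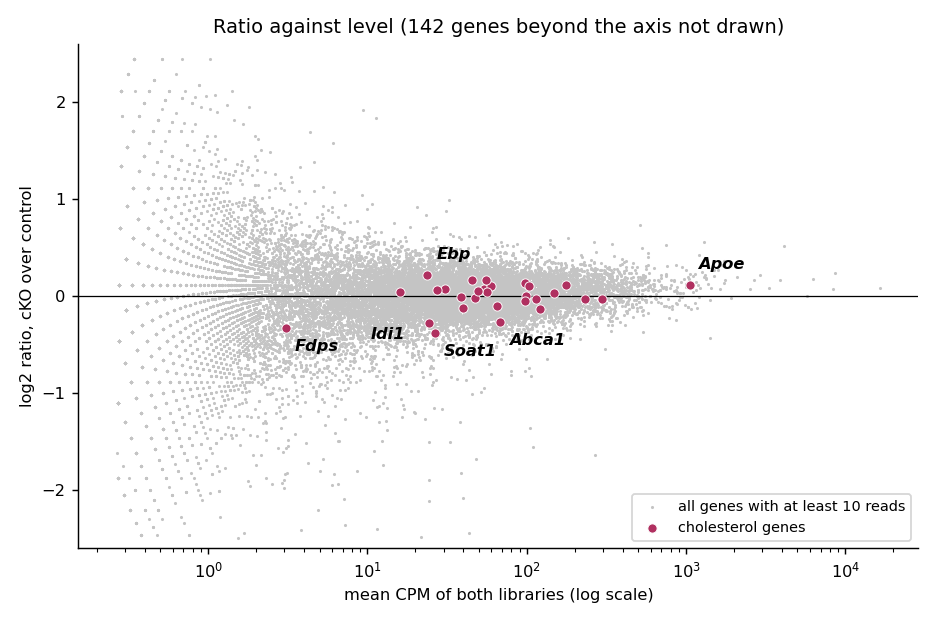
Log2 ratio of cKO over control against mean CPM on a log axis, with the 29 cholesterol genes in red over all 18787 genes with at least 10 reads in grey. The 142 genes beyond 2.5 on the log2 scale are not drawn. The red points run along 0 inside the grey cloud, and Soat1, Idi1 and Abca1 sit on its lower side.

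Per length, the order of the members was nearly the same in both libraries. Levels are given here as CPM per kb of annotated exon. That length joins the exons of all annotated transcripts and can far exceed 1 transcript. For Lss it is 10787 bases beside 4667 for its longest coding transcript, and for Sqle 5546 beside 2758. The order between genes therefore depends on the length used, while the comparison of libraries for 1 gene does not. Apoe was the highest at 472 in the control and 510 in the cKO, followed by Hmgcs1 at 50.7 and 49.7 and by Srebf2 at 41.9 and 41.2. Acat2 was the fourth at 36.6 and 40.1, and the lowest were Soat1 at 3.04 and 2.34 and Fdps at 0.809 and 0.645. Among enzymes by this measure, Hmgcs1, Acat2, Mvd (31.0 and 33.4), Pmvk (25.1 and 28.1), Cyp51 (26.2 and 25.8) and Fdft1 (23.4 and 23.4) were the highest in both libraries. Lss at 4.44 and 4.38 and Hsd17b7 at 3.10 and 3.18 were low members of the same route by this measure. Of the 29 genes, 20 held the same rank in both libraries, and no rank moved by more than 3 places.

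**Figure D3:**
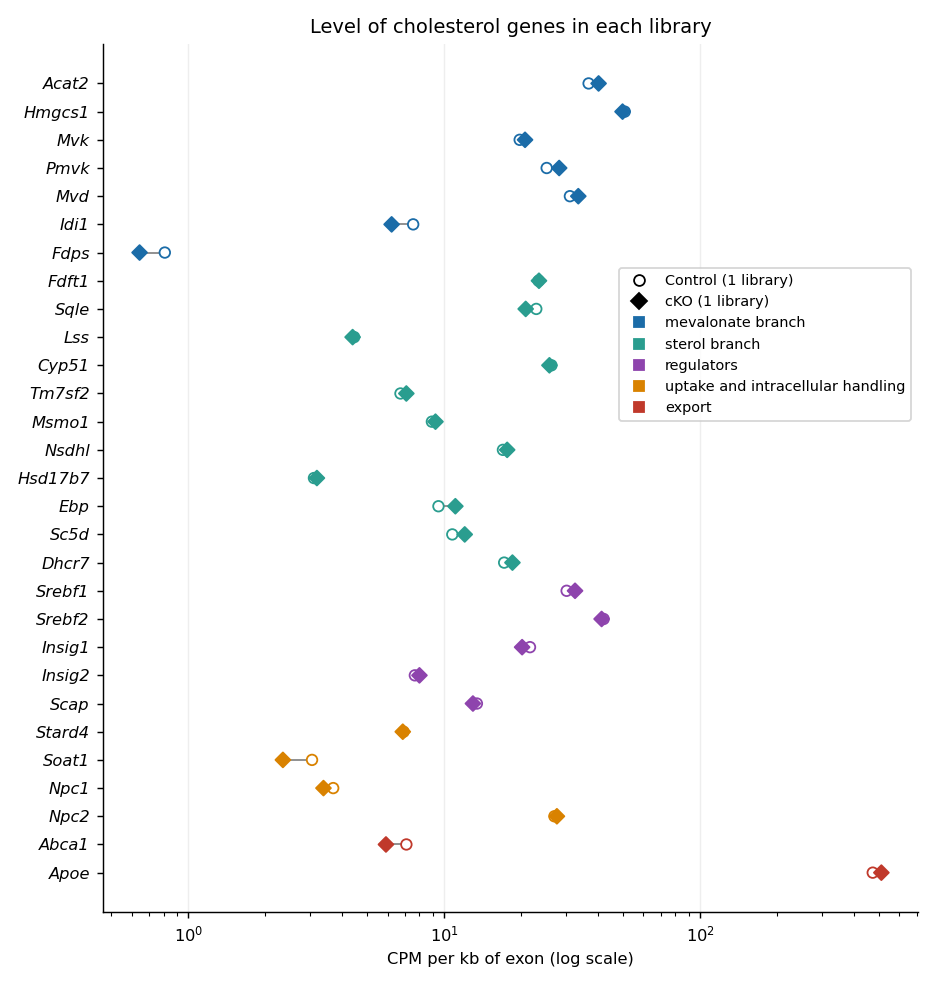
Level of the 29 genes in CPM per kb of exon on a log axis, with open circles for the control and filled diamonds for the cKO, 1 library each, coloured by role. The symbols of a gene nearly coincide, and Apoe at 472 and 510 stands far to the right of the rest.

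Promoters are shown for Hmgcs1, where an exact match to the sterol regulatory element was found, and for the 3 genes past 1.2-fold. The window runs from 250 bases before to 50 after each start site, on the gene's strand, from RefSeq on GRCm38.p6. Matches in capitals are the SREBP element TCACNCCAC, the NF-Y box CCAAT and the Sp1 box GGGCGG, on either strand, so that a reverse match reads GTGGNGTGA, ATTGG or CCGCCC. The windows are chr13:119690101-119690400 on the plus strand for Hmgcs1, chr13:8885356-8885655 on the plus strand for Idi1, chr1:156474279-156474578 on the minus strand for Soat1 and chr4:53159846-53160145 on the minus strand for Abca1.
Hmgcs1: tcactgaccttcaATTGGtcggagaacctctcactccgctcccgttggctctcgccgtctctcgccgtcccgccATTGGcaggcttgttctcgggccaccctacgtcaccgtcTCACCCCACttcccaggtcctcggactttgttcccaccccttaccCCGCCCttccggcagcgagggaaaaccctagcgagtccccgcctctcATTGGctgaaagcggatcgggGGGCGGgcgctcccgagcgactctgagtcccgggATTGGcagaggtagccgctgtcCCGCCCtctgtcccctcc
Idi1: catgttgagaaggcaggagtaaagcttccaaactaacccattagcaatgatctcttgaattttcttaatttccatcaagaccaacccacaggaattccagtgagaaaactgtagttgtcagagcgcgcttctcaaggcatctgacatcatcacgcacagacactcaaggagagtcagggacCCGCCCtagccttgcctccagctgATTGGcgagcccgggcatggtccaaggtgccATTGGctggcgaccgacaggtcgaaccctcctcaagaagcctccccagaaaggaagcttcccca
Soat1: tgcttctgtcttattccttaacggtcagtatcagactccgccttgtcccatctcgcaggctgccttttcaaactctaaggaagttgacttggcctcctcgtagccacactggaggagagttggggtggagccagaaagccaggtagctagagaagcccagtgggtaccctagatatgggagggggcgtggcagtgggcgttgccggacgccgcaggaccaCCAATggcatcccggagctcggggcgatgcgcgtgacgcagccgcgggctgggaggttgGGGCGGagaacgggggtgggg
Abca1: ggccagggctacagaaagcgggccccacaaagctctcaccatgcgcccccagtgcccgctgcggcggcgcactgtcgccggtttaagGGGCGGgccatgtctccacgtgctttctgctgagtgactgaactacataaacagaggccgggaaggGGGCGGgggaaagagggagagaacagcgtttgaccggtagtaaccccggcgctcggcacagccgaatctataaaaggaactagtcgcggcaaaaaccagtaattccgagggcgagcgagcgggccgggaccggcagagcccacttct

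Promoters were found for 24 of the 29 members, 34 windows in all, and not for Fdps, Fdft1, Sqle, Stard4 and Npc1. The exact string TCACNCCAC occurred in 1 of the 24 genes, 4.17% of them, and in 2.94% of their windows. That gene was Hmgcs1, where its stricter form TCACCCCAC begins 137 bases before the start site. Variants of the element were not searched, so a window without a match may still hold one. The Srebf2 window, for example, holds TCACCCCAT, which differs from the stricter form in its last base. Among all 32851 promoter windows, 1.24% held TCACNCCAC and 0.551% held TCACCCCAC. The CCAAT box, bound by the SREBP partner NF-Y, was in 20 of the 24 genes and 61.8% of their windows, beside 37.4% of all windows. GGGCGG was in 22 of the 24 genes and 76.5% of their windows, beside 35.7% of all windows and 65.5% of windows of genes with at least 500 reads. Counted by gene, CCAAT was in 83.3% of the members and GGGCGG in 91.7%. Of 7906 genes with at least 500 reads and a window, 1.53% held TCACNCCAC, 43.1% CCAAT and 73.3% GGGCGG. The Hmgcs1 window held 4 CCAAT boxes and 3 GGGCGG boxes, and that of Abca1 held 2 GGGCGG boxes and 0 CCAAT boxes. A match in these letters is a description of the window and not evidence of binding.

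Other lipid genes were described through 46 genes of 7 groups, all measured. By the 1.2-fold rule 2 of the 46 were higher and 3 lower, and their median log2 ratio was -0.06. Over all genes tested the same rule called 7.19% higher and 8.52% lower, which is also the background for the groups below. The SREBP processing and sterol-sensing group had 0 of 7 past the rule in either direction and a median of -0.06. Its lowest gene was the SREBP protease gene Mbtps2 with 646 and 505 reads (-0.24, -0.41 to -0.07). Mbtps2 is X-linked, the X-linked genes with at least 500 reads had a median of -0.01, and sex and genotype cannot be told apart. The highest of the group was the ubiquitin ligase gene Rnf139 with 839 and 841 (0.12, -0.02 to 0.26). Isoprenoid side branches had 0 of 5 past the rule and a median of 0.04, from Dhdds (-0.02, -0.14 to 0.10) to Pdss1 (0.14, -0.09 to 0.37). Sterol transfer proteins had 0 of 6 and a median of -0.03, from Gramd1c with 67 and 51 reads (-0.28, -0.83 to 0.27) to Osbpl2 with 1318 and 1397 (0.20, 0.09 to 0.31).

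Fatty acid synthesis and desaturation genes, which SREBP also controls, had 0 of 11 past 1.2-fold and a median of -0.07. The desaturase gene Scd2 had 17557 and 13638 reads, at -0.25 (-0.28 to -0.21), just short of 1.2-fold. The elongase gene Elovl6 followed with 1457 and 1182 (-0.18, -0.30 to -0.07). At the other end, the fatty acid synthase gene Fasn had 8548 and 8152 (0.05, 0.01 to 0.09) and the desaturase gene Fads2 had 4157 and 4186 (0.13, 0.07 to 0.19). The group held 4 intervals below 0 and 2 above it.

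Lipoprotein receptors and partners held larger shifts. Of 8 genes, 1 was higher and 2 lower by the 1.2-fold rule, where the background was 7.19% and 8.52%, with a median of -0.17. The group held 5 intervals below 0 and 2 above it, and its summed reads had a log2 ratio of -0.22 (-0.24 to -0.19). Clu, the lipid-binding chaperone clusterin, had 2830 and 1012 reads, at -1.37 (-1.47 to -1.26). The reelin and lipoprotein receptor gene Lrp8 had 3762 and 2713 (-0.35, -0.43 to -0.28). Short of 1.2-fold, the receptor genes Lrp1 with 8212 and 6586 (-0.20, -0.25 to -0.15) and Vldlr with 1976 and 1592 (-0.19, -0.29 to -0.10) had intervals below 0. So did Pltp with 1739 and 1440 (-0.15, -0.26 to -0.05), while that of the receptor gene Scarb1 held 0 (-0.04, -0.16 to 0.07). On the higher side, Lcat, which esterifies cholesterol on lipoproteins, had 433 and 551 (0.47, 0.28 to 0.65), and the lipocalin gene Apod had 3680 and 3946 (0.22, 0.15 to 0.28). Choroid plexus markers had a median of -4.90 in the same libraries, and the part of that tissue in the Clu value was not tested.

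Among 4 oxysterol enzymes, 1 was higher and 1 lower by the same rule, all at low or moderate counts, and the median was -0.33. That median includes Ch25h, which had very few reads, and the log2 ratio of the group's summed reads was 0.02 (-0.11 to 0.16). Cyp27a1 had 61 and 36 reads (-0.64, -1.28 to -0.03), Cyp7b1 had 230 and 255 (0.27, 0.00 to 0.53), and the neuronal cholesterol hydroxylase gene Cyp46a1 had 630 and 576 (-0.01, -0.18 to 0.15). Ch25h had 8 and 3 reads, too few to place. LXR receptors and targets had 0 of 5 past the rule and a median of -0.14. Abcg1, a sterol exporter of the same family as Abca1, had 321 and 257 reads (-0.20, -0.45 to 0.04), Mylip had 382 and 317 (-0.15, -0.37 to 0.07), and the receptor gene Nr1h3 had 63 and 73 (0.33, -0.18 to 0.84). The intervals of these 3 genes held 0. The other receptor gene, Nr1h2, was the one gene of the group whose interval did not, with 1405 and 1178 reads (-0.14, -0.25 to -0.02).

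**Figure D4:**
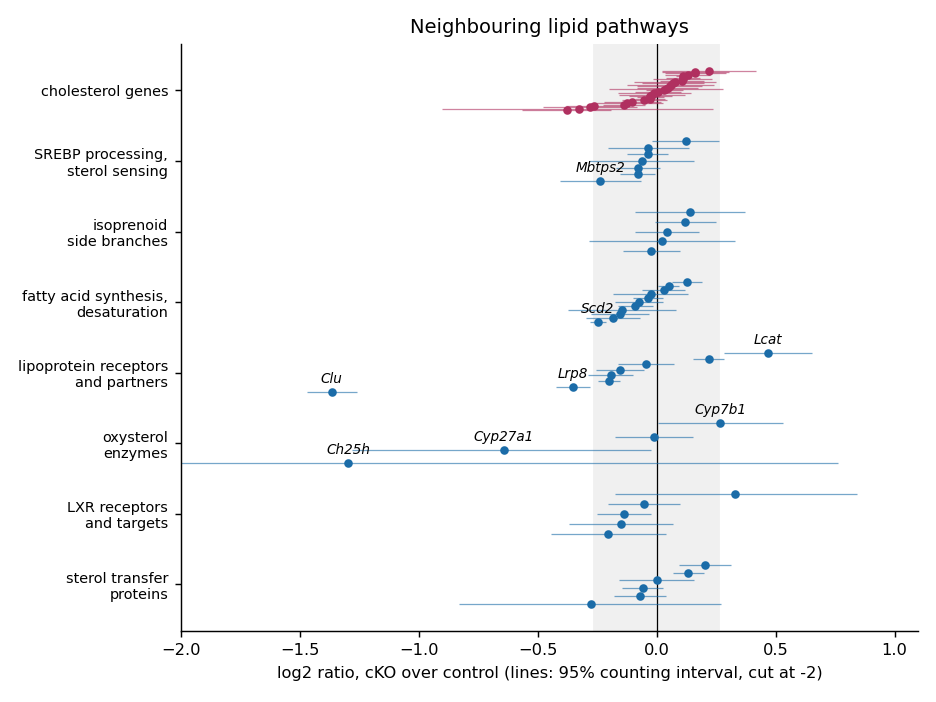
Log2 ratio of cKO over control for the 29 cholesterol genes in red and for 7 neighbouring lipid groups in blue, with 95% counting intervals cut at -2 and 1.2-fold shaded in grey. Clu at -1.37 and Ch25h, which has a wide interval, lie farthest to the left. Most points lie within the band except among the oxysterol enzymes, where 1 of 4 does.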

How the data were processed

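RNA sequencing of 1 control and 1 cKO cerebellum library was taken from the authors' deposited table, which gives raw counts of reads per gene for 22423 Ensembl genes. Per the submitters' processing notes, the build was mm9 and the tools included HTSeq 0.6.0, Bowtie2 2.2.3 and TopHat2 2.0.12, with no roles given, and strand use and the treatment of reads with several matches are not given in the sources used here. The deposited CPM values equal the counts divided by 1 total per column, with a count of 0 replaced by 0.5. The deposited fold ratio, its log2 value and the deposited p-value columns were not used, since a p-value from 1 library per genotype compares libraries and not genotypes. Unused columns of per-sample values numbered 0.

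Libraries were scaled over the whole table with TMM factors (a trimmed mean of log ratios) from edgeR 4.0.16 in R 4.3.3. Ratios carry exact binomial (Clopper-Pearson) 95% intervals and CPM values exact Poisson 95% intervals, computed with Python 3.11.15, numpy 2.4.6, pandas 2.3.3 and scipy 1.17.1. Reads were treated as independent molecules, so intervals are for counting error alone. The 18787 genes with at least 10 reads over both libraries were compared. Where a gene had 0 reads, 3 counts were used as its floor. The ratio, interval and call rule were run on counts simulated with counting error only, which cannot show how they perform across animals. Exon lengths, exon overlaps and X linkage came from GENCODE M21, which held 22383 of the gene IDs, and its build differs from mm9, so no read position was used. Member transcripts were searched against all other GENCODE transcripts with BLAST 2.17.0 at 95% identity over at least 100 bases. Plots used matplotlib 3.10.9.

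All 29 members are named, and of every other lipid list up to 2 genes from each end of the ratios, with at least 50 reads, could be named. Of these, some are left out for brevity, and Ch25h, Nr1h2, Zic1, Lrp1, Vldlr, Pltp and Scarb1 were chosen after their values were seen. The members, lists, thresholds and alternatives were chosen with earlier results of these data known. Alternatives were DESeq2 1.42.0 size factors, total reads, upper quartile scaling, 99% intervals, other read minimums and other folds.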

Additional observations from a re-analysis of the deposited data

How the results depend on the processing

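With scaling by DESeq2 size factors, total reads or the upper quartile, the counts of members past 1.2-fold were the same, 0 higher and 3 lower, and 1 of 29 member ratios changed sign, that of Fdft1 near 0. Those scalings moved any ratio by at most 0.03 on the log2 scale, and the log2 ratio of summed enzyme reads became -0.0063 (-0.03 to 0.02) by total reads. Whether an interval held 0 depended on these choices for 7 members. By total reads, those of Pmvk, Ebp and Dhcr7 came to hold 0 and those of Insig1, Npc1 and Srebf2 fell below it. With DESeq2 size factors the same was so of Dhcr7 and of Insig1, and 99% intervals held 0 for Pmvk, Ebp, Sc5d and Dhcr7. The threshold decided more than the scaling. At 1.1-fold, 3 members were higher and 3 lower, beside 2669 and 2566 of all genes tested, and 5 members had the whole interval within that fold. At 1.5-fold, 0 members were lower, beside 425 genes higher and 736 lower. Past 2-fold, the genes numbered 413 with 99% intervals, 231 at a minimum of 50 reads and 42 at 500 reads, and 1161 passed 1.5-fold. At 500 reads, 728 genes were higher and 716 lower by 1.2-fold. In each case the change follows from the altered rule. No paired analysis was possible because each genotype has 1 library, so leaving out a replicate was not an option either. Depth limits Fdps most, whose interval spans 1.14 on the log2 scale, against 0.0583 for Apoe.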
